A study of Mus musculus with 15 samples.

Results

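The 56 genes described here make up the antigen presentation machinery of the mouse major histocompatibility complex (MHC). They are the 43 entries whose symbols begin with H2-, together with 13 named partners: B2m, Tap1, Tap2, Tapbp, Erap1, Psmb8, Psmb9, Psmb10, Psme1, Psme2, Nlrc5, Ciita and Cd74. They were chosen by symbol, without suffixed copies and -ps entries, from 42396 gene entries of the count tables. By role 41 were counted as class I, 12 as class II and 3, H2-K2, H2-Ke6 and H2-D4, as neither. H2-K2 and H2-D4, listed as transcribed pseudogenes, were set in neither class by their symbols alone. H2-Q5, H2-T10 and H2-Bl are listed as transcribed pseudogenes too, but were counted with the class I heavy chains by their symbols. H2-Ea, also listed as one, was counted as class II. RNA of the tibialis anterior, the fast-twitch muscle at the front of the shin, was sequenced 2 months after adeno-associated virus of serotype AAV6 had been given to the hindlimb of C57BL/6 mice. The groups were male C-del (4 libraries), male mock (4 libraries), female C-del (4 libraries) and female mock (3 libraries). C-del libraries come from muscle given LSMEM2 C-del, a form whose name the labels do not explain, and mock libraries from muscle given the green fluorescent protein EGFP, so virus was present in both. All groups were of a single strain, and neither the ages of the mice nor the promoter of the virus is given in the sources used here. Males and females were counted in separate tables that were normalised separately, and an effect of sex cannot be told apart from one of the table.

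MHC class I molecules sit on nearly all nucleated cells and show peptides from inside the cell to CD8+ T cells. Such a molecule is a heavy chain held by the light chain beta-2-microglobulin, and its peptides are cut by the proteasome, pumped into the endoplasmic reticulum by TAP and loaded there with help from tapasin. Class II molecules are made chiefly by dendritic cells, macrophages and B cells and show peptides from outside the cell to CD4+ T cells, with the invariant chain Cd74 guarding the groove until H2-DM exchanges it for peptide. Interferon gamma raises both classes, through Irf1 and the transactivators Nlrc5 for class I and Ciita for class II, and resting muscle fibres are known for very little class I on their surface.

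The promoters of 6 members whose values are described below are shown because they carry the elements through which interferons and the transactivators are known to act. The sequences are from RefSeq on GRCm38.p6 and run from 250 bases before to 50 bases after the annotated start, in the direction of the gene. Capitals mark the core of the interferon-stimulated response element (GAAA, any 2 bases, GAAA) and the CCAAT box in the inverted form of MHC promoters (ATTGG), each on either strand, in every promoter but that of Psmb8. In Psmb8 they mark the gamma-activated site (TTC, any 3 bases, GAA), which reads alike on both strands, and neither of the other elements was found in that window.
B2m: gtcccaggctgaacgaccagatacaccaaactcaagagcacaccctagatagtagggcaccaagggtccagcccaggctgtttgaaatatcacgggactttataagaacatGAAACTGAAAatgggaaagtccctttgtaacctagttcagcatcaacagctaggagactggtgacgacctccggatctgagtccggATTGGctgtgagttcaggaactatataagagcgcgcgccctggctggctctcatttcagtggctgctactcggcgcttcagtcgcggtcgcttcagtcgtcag
H2-K1: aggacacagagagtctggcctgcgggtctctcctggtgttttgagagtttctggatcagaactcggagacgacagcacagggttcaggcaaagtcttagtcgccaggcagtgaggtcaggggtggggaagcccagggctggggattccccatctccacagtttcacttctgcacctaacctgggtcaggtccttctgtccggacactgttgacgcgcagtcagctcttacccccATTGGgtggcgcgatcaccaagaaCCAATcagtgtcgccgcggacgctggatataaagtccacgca
H2-T23: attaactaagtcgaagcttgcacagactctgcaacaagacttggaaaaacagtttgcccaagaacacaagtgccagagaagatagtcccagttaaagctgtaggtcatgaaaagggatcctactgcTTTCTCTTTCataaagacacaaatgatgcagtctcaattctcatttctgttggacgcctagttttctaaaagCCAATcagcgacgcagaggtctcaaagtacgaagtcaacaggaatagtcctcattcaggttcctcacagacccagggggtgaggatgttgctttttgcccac
Tap1: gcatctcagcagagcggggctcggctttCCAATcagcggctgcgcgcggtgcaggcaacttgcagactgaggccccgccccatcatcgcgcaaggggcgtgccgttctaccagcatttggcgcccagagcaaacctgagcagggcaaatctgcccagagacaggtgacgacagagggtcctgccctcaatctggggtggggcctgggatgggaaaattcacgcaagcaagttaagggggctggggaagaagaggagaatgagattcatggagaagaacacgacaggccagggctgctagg
Psmb8: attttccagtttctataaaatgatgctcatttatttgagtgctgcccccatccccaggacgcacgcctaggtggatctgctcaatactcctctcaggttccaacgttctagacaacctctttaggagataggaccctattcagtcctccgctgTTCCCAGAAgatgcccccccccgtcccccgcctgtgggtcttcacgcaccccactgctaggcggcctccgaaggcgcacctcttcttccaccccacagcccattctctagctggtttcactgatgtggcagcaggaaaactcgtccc
H2-Aa: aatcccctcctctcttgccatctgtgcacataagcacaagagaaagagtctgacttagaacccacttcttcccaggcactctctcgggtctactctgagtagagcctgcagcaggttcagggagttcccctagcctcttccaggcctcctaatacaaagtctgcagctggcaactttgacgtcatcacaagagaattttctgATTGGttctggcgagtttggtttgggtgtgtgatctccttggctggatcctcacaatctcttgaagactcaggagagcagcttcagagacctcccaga
The windows are chr2:122147437-122147736 on the plus strand for B2m, chr17:34000298-34000597 on the minus strand for H2-K1 (the first of 2 windows of that gene), chr17:36032652-36032951 on the minus strand for H2-T23, chr17:34187306-34187605 on the plus strand for Tap1, chr17:34197945-34198244 on the plus strand for Psmb8 and chr17:34287774-34288073 on the minus strand for H2-Aa. The window of Tap1 overlaps that of Psmb9, which is read from the other strand. RefSeq windows were matched for 40 of the 56 genes, in 44 promoters. The inverted CCAAT box was in 34 of these 44, against 37.4% of all 32851 promoters of the table. The CRE core of the X2 box (TGACG) was in 18 of the 44, against 20.8% of all promoters. The response element core was in 5, those of B2m, Erap1, H2-T22, H2-T23 and Psme1, against 3.44% of all, and the gamma-activated site in 4, those of H2-DMb2, H2-M11, H2-M3 and Psmb8, against 8.3% of all. A match says only that the letters are present.

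Libraries held 14297620 to 17744015 counts in males and 9285145 to 12054871 in females. Whether each library is a separate animal is not stated in the labels, and the spread between libraries that the p-values measure may thus be technical. Lsmem2, the delivered gene, stood at 481, 2355, 1865 and 1287 CPM (counts normalised to the TMM-scaled library size) in male C-del libraries and at 29.8, 29.5, 29.2 and 28.5 CPM in male mock libraries. Female C-del libraries held 1361, 2119, 1684 and 2705 CPM of Lsmem2 and female mock libraries 30.9, 30.03 and 32.7 CPM. Every library therefore matched its treatment label, although male C-del library 1 held less Lsmem2 than the other C-del libraries. The extraction text speaks of hearts whereas the labels name skeletal muscle. A list of 6 muscle fibre genes (Acta1, Ckm, Myh4, Mylpf, Tnnt3 and Actn3) summed to 88930 to 124900 CPM across the libraries, and a list of 5 heart genes to 7.19 to 27.2 CPM.

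Female mock libraries 2 and 3 stood apart from female mock library 1 in these genes before any comparison with C-del. The 56 genes summed to 454, 2995 and 2253 CPM in the 3 female mock libraries and to 363.7 to 467.6 CPM in each of the other 12 libraries of the study. The same 2 libraries held the most RNA of leukocyte markers. The 4 pan-leukocyte genes (Ptprc, Cd53, Coro1a and Laptm5) summed to 9.17, 230.4 and 75.97 CPM in female mock libraries 1, 2 and 3. All female results below therefore rest on libraries that disagree within a group. Medians and the log2 fold changes of the leading genes are given with and without these 2.

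**Figure D1:**
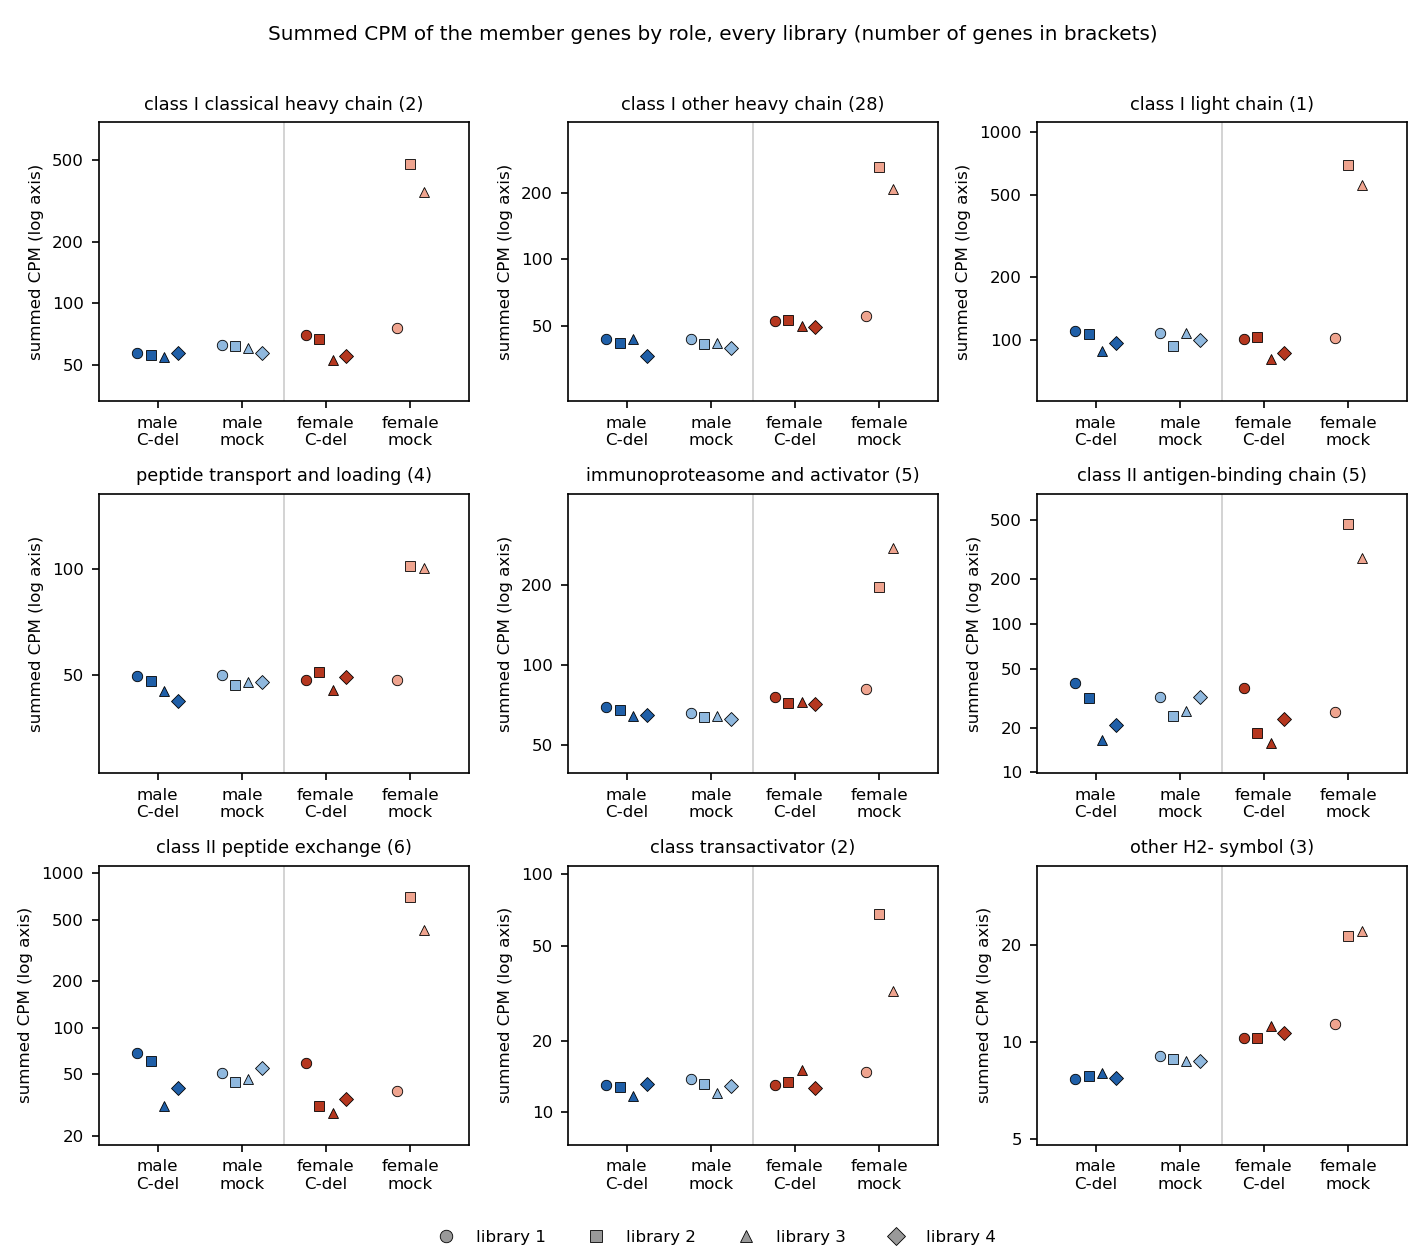
Summed CPM of the 56 genes by role in every library, on log axes, with C-del libraries left of mock libraries in each sex and the marker shape giving the library number. Female mock libraries 2 and 3 lie above all others in every role sum (2995 and 2253 CPM over all 56 genes), while female mock library 1 stands at 453.8 CPM.

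Of the 56 genes, 48 had a count in at least 1 library. The 8 with none were H2-M10.1 to H2-M10.6 and H2-M11, class I genes of the M region known from the vomeronasal organ, and H2-Ea, the class II alpha chain that C57BL/6 mice are known to lack. A count of 3, the limit that 0 allows, is 0.169 to 0.21 CPM in male and 0.249 to 0.323 CPM in female libraries. Between genes, levels were compared as CPM per kb of exon, with suffixed copies added. B2m, the class I light chain, was the highest at 117 ± 11.7 CPM per kb in male C-del and 119 ± 8.28 CPM per kb in male mock libraries (SD, n = 4 each). The classical heavy chain H2-D1 followed at 37.1 ± 1.64 CPM per kb in male C-del and 36.6 ± 1.69 CPM per kb in male mock libraries. H2-K1, the other classical heavy chain, stood at 21.9 ± 0.80 CPM per kb in male C-del and 24.98 ± 1.20 CPM per kb in male mock libraries. The invariant chain Cd74 lay at 28.3 ± 9.88 CPM per kb in male C-del and 27.6 ± 2.56 CPM per kb in male mock libraries, so in C-del libraries its spread reached that of both heavy chains. The class II chain H2-Eb1 was at 8.41 ± 2.92 CPM per kb in male C-del and 8.86 ± 1.53 CPM per kb in male mock libraries, within the spread of H2-Ab1 at 7.42 ± 2.96 and 7.54 ± 1.26 CPM per kb. The lowest of the tested partners was the class I transactivator Nlrc5, at 0.183 ± 0.055 CPM per kb in male C-del and 0.220 ± 0.012 CPM per kb in male mock libraries.

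Counting split many of these genes over further entries that stand for copies at other loci or on alternate sequences. Of the 56 genes 45 had such copies, 125 in all. The entry with the plain symbol, which all values below use, held 50.2% of the counts of H2-K1, 25% of those of H2-D1, 49.6% of those of H2-Aa and 33.3% of those of Tap1, but 100% of those of B2m, Erap1, Psmb10, Psme1, Psme2, Cd74, Nlrc5 and Ciita. Class I heavy chains also share sequence among themselves: 34.2% of the 50-base windows of H2-T22 transcripts and 36.4% of those of H2-Q5 occur in another member, against 0% for B2m and the class II chains. Values of H2-Q5, H2-Q6, H2-Q7, H2-Q9, H2-T10 and H2-T22 are therefore uncertain as to which gene gave the reads. With all copies summed, the count of calls was the same in each comparison (1 in males and 0 in females).

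In males most of the genes stood at nearly the same level in C-del and mock muscle, and the share that passed the test was not above that of all genes. Of the 27 genes tested with edgeR's quasi-likelihood test, 1 was lower (5.37% of all 14543 genes tested were lower) and 0 were higher (5.80% of all genes). At an unadjusted p under 0.05, 2 were lower and 0 higher, against 1874 lower and 1900 higher of all 14543 genes. DESeq2 called 0 in either direction, against 664 lower and 837 higher among the genes tested with edgeR. The lower gene was H2-K1, whose call was lost in most other fits. The median log2 fold change of the 27 was -0.05, against -0.005 over all genes tested, and 20 of the 27 were negative. In 2 of the 27, H2-K1 and H2-Ke6, every C-del library was below every mock library (8.47% of all genes).

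H2-K1 stood at 31.9, 31.9, 31.7 and 34.02 CPM in male C-del libraries and at 38.99, 37.6, 35.8 and 34.98 CPM in male mock libraries. The C-del libraries were close together below 34.98 CPM, the lowest mock library. The fitted log2 fold change was -0.19 ± 0.056 (SE), with an edgeR adjusted p of 0.0457. That call was lost with DESeq2 (adjusted p 0.0978), with no low-count filter (0.0703), in the fit of all 15 libraries and when any single library but C-del library 4 was left out (adjusted p 0.0523 to 0.135, against 0.045 without C-del library 4). H2-D1, by contrast, overlapped between the groups, with 25.2, 24.3, 22.8 and 23.4 CPM in male C-del and 23.6, 23.98, 24.6 and 22.1 CPM in male mock libraries. Its log2 fold change was 0.02 ± 0.061, with an edgeR adjusted p of 0.885.

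Among the non-classical heavy chains 0 of the 6 tested in males passed, in either direction. H2-Q4 had 4.77, 3.65, 4.51 and 3.60 CPM in male C-del libraries and 6.29, 5.16, 4.49 and 4.88 CPM in male mock libraries, a log2 fold change of -0.34 ± 0.14 with an edgeR adjusted p of 0.143. H2-T23, the gene of Qa-1, which presents to inhibitory receptors of NK cells, had 12.5, 11.5, 9.48 and 8.39 CPM in male C-del libraries and 10.8, 9.41, 8.48 and 7.37 CPM in male mock libraries. Both pairs of groups overlapped, H2-Q4 through C-del libraries 1 and 3 and mock library 3. The remaining 4, H2-Q6, H2-T10, H2-T22 and H2-T24, had log2 fold changes of -0.37, -0.18, -0.01 and 0.19. The light chain B2m had 110.5, 107, 88.5 and 96.9 CPM in male C-del libraries and 108, 93.6, 108 and 99.8 CPM in male mock libraries, and the mock libraries lay inside the range of the C-del libraries.

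The genes that make and load class I peptides did not separate the male groups either. Of the 4 for transport and loading, log2 fold changes were -0.34 ± 0.25 for the transporter chain Tap1, -0.06 ± 0.13 for its partner chain Tap2, -0.05 ± 0.10 for tapasin (Tapbp) and -0.05 ± 0.058 for the trimming peptidase Erap1. Tap1 stood at 1.14, 0.992, 0.938 and 0.770 CPM in male C-del libraries and at 1.70, 1.11, 1.16 and 0.955 CPM in male mock libraries. Among the interferon-induced proteasome subunits, Psmb8 had a log2 fold change of -0.25 ± 0.20, Psmb9 one of -0.05 ± 0.28 and Psmb10 one of 0.03 ± 0.099. The subunits of the 11S activator, Psme1 and Psme2, had 0.11 ± 0.060 and 0.02 ± 0.062. The transactivator Nlrc5 had 1.93, 1.25, 1.07 and 1.98 CPM in male C-del libraries and 1.88, 1.81, 1.77 and 2.01 CPM in male mock libraries. C-del libraries 1 and 4 were within the mock range and C-del libraries 2 and 3 below it. H2-Ke6, which encodes a dehydrogenase and carries the H2 name for its position only, stood at 7.03, 7.07, 6.98 and 7.21 CPM in male C-del and 7.87, 7.51, 7.79 and 7.88 CPM in male mock libraries, a log2 fold change of -0.14 ± 0.089 with an edgeR adjusted p of 0.375.

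Most class II genes varied widely in males, and the spread lay among the C-del libraries. H2-Aa, the class II alpha chain, had 16.5, 12.4, 6.33 and 8.18 CPM in male C-del libraries and 12.7, 9.31, 10.8 and 13.00 CPM in male mock libraries. Cd74 had 65.02, 57.6, 29.3 and 38.3 CPM in male C-del libraries and 47.9, 41.9, 43.97 and 51.6 CPM in male mock libraries. In Cd74, C-del libraries 1 and 2 were above and C-del libraries 3 and 4 below every mock library. The beta chain H2-Ab1 had the same split, with 13.2, 11.6, 5.63 and 6.80 CPM in male C-del and 9.96, 8.15, 8.21 and 11.6 CPM in male mock libraries, and H2-Eb1 had 10.2, 7.91, 4.64 and 5.74 CPM in male C-del and 9.73, 6.36, 7.10 and 7.54 CPM in male mock libraries. None of the 7 class II genes tested passed, at an adjusted or an unadjusted p, in edgeR, and DESeq2 called 0. Their log2 fold changes ran from -0.11 for H2-DMa to 0.04 for Cd74, with SEs of 0.08 to 0.37. Of the peptide exchange genes, H2-DMa had 1.93, 1.66, 1.33 and 1.55 CPM in male C-del and 1.59, 1.86, 1.63 and 1.86 CPM in male mock libraries, and H2-DMb1 had 1.29, 1.27, 0.279 and 0.889 CPM in male C-del and 0.851, 0.659, 0.879 and 1.37 CPM in male mock libraries. Ciita was even, at 11.1, 11.5, 10.6 and 11.2 CPM in male C-del and 11.9, 11.3, 10.3 and 10.9 CPM in male mock libraries.

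Macrophage markers were high in the same male C-del libraries, 1 and 2. The 9 genes of the list (Adgre1, Cd68, Csf1r, C1qa, C1qb, C1qc, Mrc1, Lyz2 and Fcgr1) summed to 188, 209, 60.4 and 78.1 CPM in male C-del libraries and 77.6, 78.7, 73.04 and 87.1 CPM in male mock libraries, and none was at 0 in any library. The pan-leukocyte genes summed to 19.6, 23.9, 7.10 and 9.91 CPM in male C-del and 10.6, 9.09, 7.95 and 12.01 CPM in male mock libraries. Dendritic cell markers summed to 10.2 to 12.1 CPM in male C-del and 9.48 to 11.8 CPM in male mock libraries, and that sum did not set C-del libraries 1 and 2 apart. Most of it was Zbtb46, at 6.64, 7.94, 9.65 and 8.95 CPM in male C-del libraries, and single genes of the list were not alike. Itgax had 1.58, 1.47, 0.101 and 0.756 CPM in male C-del and 0.517, 0.101, 0.205 and 0.243 CPM in male mock libraries. B and plasma cell markers summed to 37.6 to 51.4 CPM in male C-del and 28.1 to 35.2 CPM in male mock libraries, with no overlap. Most of that sum was Ighm, which was higher in C-del (log2 fold change 0.55, edgeR adjusted p 0.00558). It was the 1 gene called of 3 of that list tested in males (5.80% of all genes were higher). In whole muscle, fewer cells of a type and less RNA per cell cannot be told apart, and the part of macrophages in the class II values was not tested. With C-del libraries 1 and 2 left out together, the log2 fold changes were -0.65 for H2-Aa, -0.60 for H2-Ab1 and -0.45 for Cd74. These libraries were left out because of their high class II values, so the lower values without them restate the split and are given with no test. H2-K1 did not pass in that fit (log2 fold change -0.16, edgeR adjusted p 0.184).

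**Figure D2:**
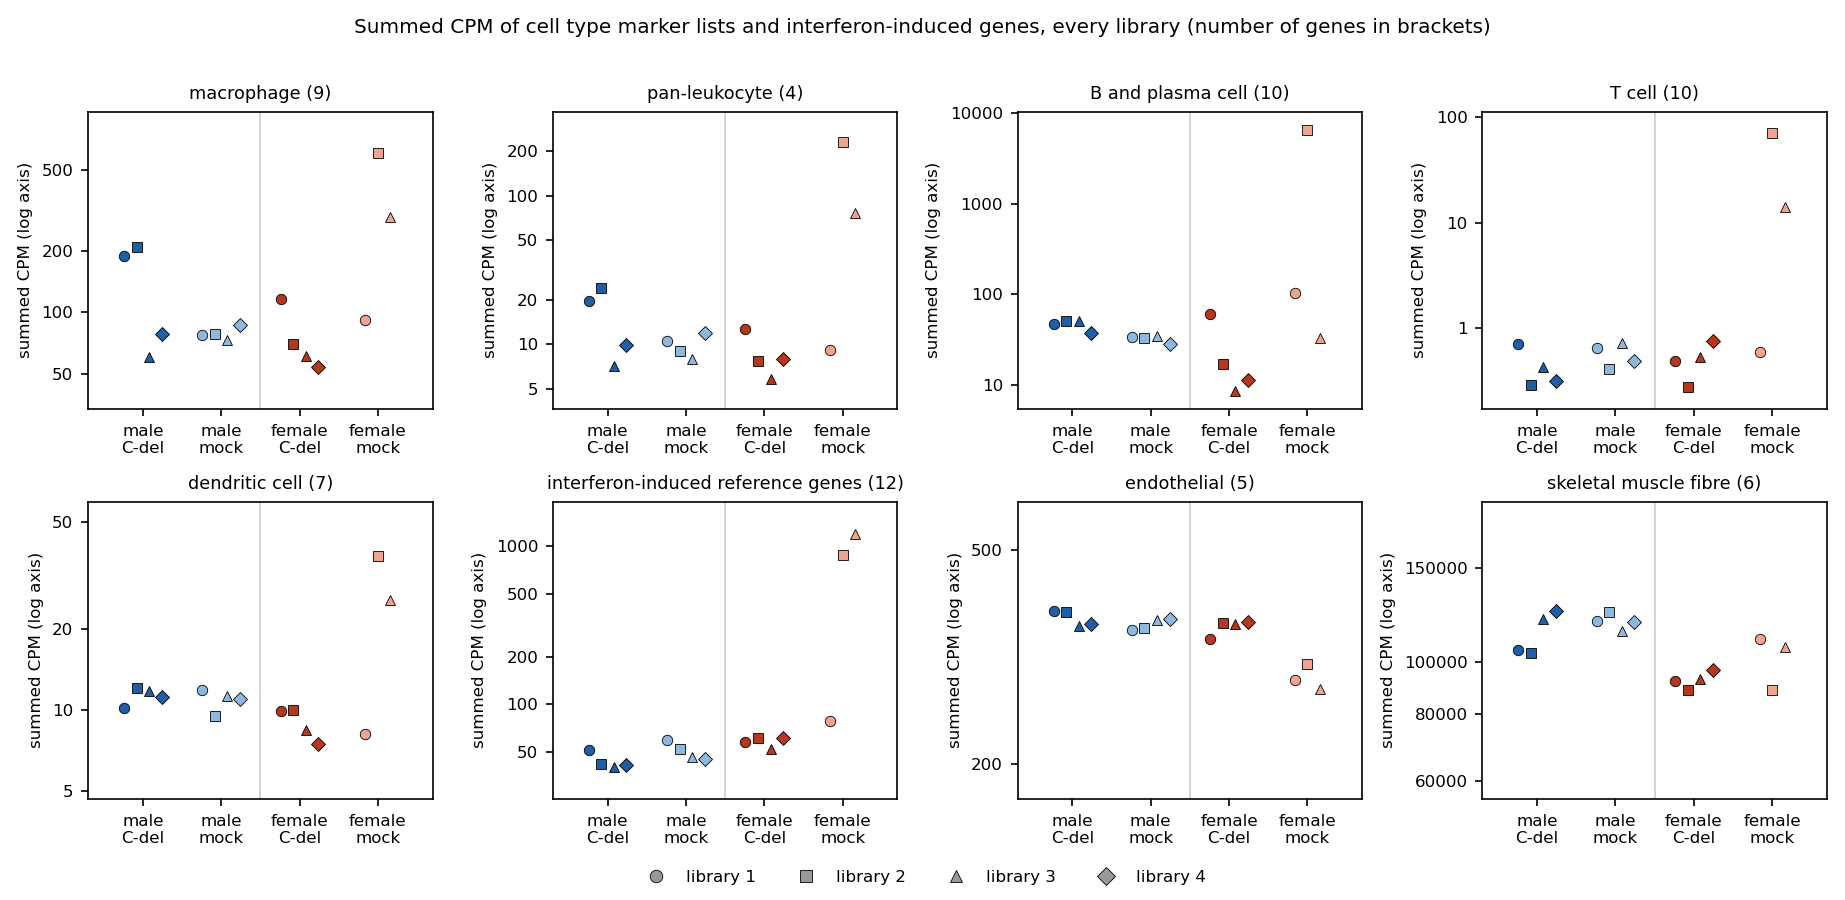
Summed CPM of cell type marker lists and of interferon-induced genes in every library, on log axes, with C-del libraries left of mock libraries in each sex and the marker shape giving the library number. Macrophage markers are high in male C-del libraries 1 and 2 (188.1 and 208.9 CPM) and in female mock libraries 2 and 3 (602.4 and 294.6 CPM). B and plasma cell markers are by far the highest in female mock library 2 (6513 CPM).

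In females class I and class II genes were lower in C-del muscle than in the mock group taken as a whole, but no gene passed edgeR's test. Of the 33 genes tested with edgeR, 0 were lower at an adjusted p under 0.05 (0% of all 14220 genes tested), with adjusted p from 0.12 to 0.82. At an unadjusted p under 0.05, 31 were lower and 0 higher (7.09% of all genes were lower), the exceptions being H2-T24 and H2-Ke6. All 33 log2 fold changes were negative. Their median was -2.25, with -1.97 for the 23 class I and -3.37 for the 7 class II genes, against -0.02 over all genes tested. In 15 of the 33, every C-del library was below every mock library (4.44% of all genes). Among them, H2-Q5, H2-Q7, H2-Q9, H2-K2 and H2-D4 reached at most 0.77 CPM in C-del libraries. They passed the low-count filter only through the mock libraries, so the filter fixed their direction and their separation in advance. Other fits of the same counts made calls: DESeq2 called 26 of the 39 with an adjusted p lower (2.25% of all 17145 genes with one), and the edgeR fit of all 15 libraries called 29 of 33 (3.37% of all 15272 genes tested).

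The calls turned on female mock library 1. Without it, edgeR called 34 of 36 genes lower (6.36% of the 14706 genes tested), all but H2-T24 and H2-Ke6, with a median log2 fold change of -2.74. That fit keeps only the mock libraries already seen to be high in these genes. Its calls therefore restate that difference and are no support for it. The genes beyond the 33 passed the low-count filter only once library 1 was left out. With mock libraries 2 and 3 left out instead, the median of the 33 was -0.10. The 33 log2 fold changes then ran from -1.10 to 0.62, with 25 negative and 8 positive. That last fit has a single mock library, whose own spread is unknown and was taken from the C-del libraries. Library 1 lay within the range of the C-del libraries in 17 of the 33 genes, above it in 15 and below it in 1, H2-Ke6. It lay within that range in 7 of 7 class II genes and in 10 of 23 class I genes.

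**Figure D3:**
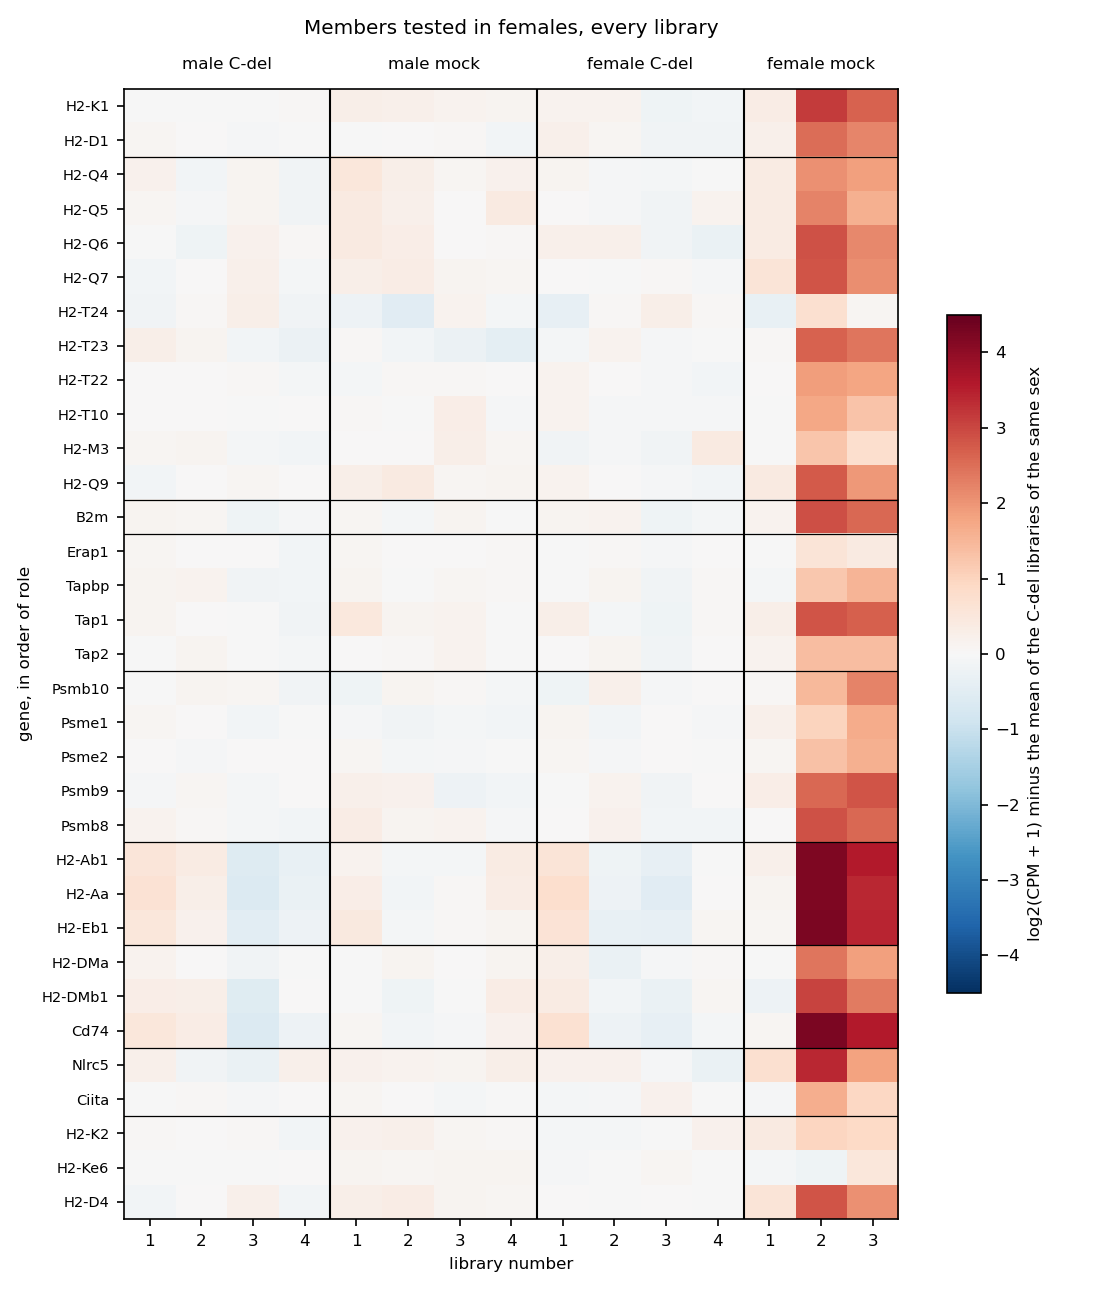
Log2(CPM + 1) of each gene tested in females, in every library, as the difference from the mean of the C-del libraries of the same sex and grouped by role, with C-del columns left of mock columns in each sex. Female mock libraries 2 and 3 are the high columns for nearly every gene, while in males class II genes are high in C-del libraries 1 and 2 and low in C-del libraries 3 and 4.

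Among the classical heavy chains, H2-K1 had 42.5, 42.00, 32.4 and 34.5 CPM in female C-del libraries and 48.2, 341 and 241 CPM in female mock libraries. H2-D1 had 27.3, 24.6, 20.7 and 20.9 CPM in female C-del libraries and 27.3, 137 and 109.9 CPM in female mock libraries. In both genes even mock library 1 was above all C-del libraries, by a small margin in H2-D1. Their log2 fold changes were -2.47 ± 0.52 and -1.97 ± 0.44, with edgeR adjusted p of 0.152 and 0.157. Without mock libraries 2 and 3 they were -0.35 ± 0.153 and -0.22 ± 0.16. B2m had 101, 103, 81.1 and 86.5 CPM in female C-del libraries and 103, 696 and 555 CPM in female mock libraries. Mock library 1 was within the C-del range there, and the log2 fold change was -2.28 ± 0.51 with an edgeR adjusted p of 0.157, against -0.14 ± 0.132 without mock libraries 2 and 3.

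The non-classical heavy chains differed among themselves. H2-Q7, a gene of the Qa-2 antigen, had 0.746, 0.685, 0.771 and 0.678 CPM in female C-del libraries and 1.58, 11.2 and 6.33 CPM in female mock libraries. Its groups did not overlap, and its log2 fold change was -3.17 ± 0.58 with an edgeR adjusted p of 0.12, and -1.10 ± 0.485 without mock libraries 2 and 3. The groups did not overlap either in the other 4 genes of the Q region tested, H2-Q4, H2-Q5, H2-Q6 and H2-Q9. Their log2 fold changes were -1.73, -2.74, -2.63 and -3.27. In H2-Q5, H2-Q7 and H2-Q9 the separation was fixed in advance, since these passed the low-count filter only through the mock libraries. In the T and M regions the groups overlapped, because mock library 1 was within the C-del range. H2-T23 had 11.1, 13.2, 11.3 and 11.7 CPM in female C-del libraries and 12.4, 79.8 and 67.6 CPM in female mock libraries, with a log2 fold change of -2.18 ± 0.50 and an edgeR adjusted p of 0.157, and of -0.07 ± 0.167 without mock libraries 2 and 3. H2-T22, H2-T10 and H2-M3 had log2 fold changes of -1.47, -1.83 and -1.61. H2-T10, like H2-Q5, is listed as a transcribed pseudogene. H2-T24 was the least different of the heavy chains, with 4.75, 6.66, 7.94 and 6.75 CPM in female C-del libraries, 4.92, 11.1 and 6.87 CPM in female mock libraries and a log2 fold change of -0.24 ± 0.28.

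Peptide processing genes ranged from a small difference to a large one. Psmb9 had 1.03, 1.33, 0.866 and 1.08 CPM in female C-del libraries and 1.56, 11.4 and 13.9 CPM in female mock libraries. Psmb8 had 1.88, 2.25, 1.56 and 1.61 CPM in female C-del libraries and 1.87, 19.4 and 15.9 CPM in female mock libraries. These catalytic subunits, which replace constitutive ones when interferon acts, had log2 fold changes of -3.04 ± 0.62 and -2.78 ± 0.63 (edgeR adjusted p 0.152 and 0.157), and only in Psmb8 was mock library 1 within the C-del range. Without mock libraries 2 and 3 the log2 fold changes were -0.51 for Psmb9, -0.05 for Psmb8 and -0.45 for Tap1. Psmb10, the other such subunit, had -1.56 ± 0.42, and the activator subunits Psme1 and Psme2 had -1.11 ± 0.28 and -1.17 ± 0.29. Tap1 had 1.70, 1.15, 0.972 and 1.33 CPM in female C-del libraries and 1.73, 15.2 and 13.6 CPM in female mock libraries, a log2 fold change of -2.99 ± 0.62 with an edgeR adjusted p of 0.152. Its partner Tap2 had -1.27 ± 0.31, Tapbp -1.10 ± 0.33 and Erap1 -0.35 ± 0.14. Erap1 thus had the smallest difference of these genes, with 32.8, 34.7, 32.3 and 33.9 CPM in female C-del and 33.2, 50.4 and 44.2 CPM in female mock libraries. Mock libraries 2 and 3 were above all the other female libraries in Erap1 too.

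By their medians, class II genes differed more than any other role tested in females. H2-Ab1 had 10.7, 5.84, 5.01 and 6.83 CPM in female C-del libraries and 8.29, 144 and 92.6 CPM in female mock libraries. H2-Aa had 16.4, 7.77, 6.25 and 9.47 CPM in female C-del libraries and 10.4, 189 and 109 CPM in female mock libraries. H2-Eb1 had 10.1, 4.78, 4.54 and 6.62 CPM in female C-del libraries and 6.61, 135 and 76.9 CPM in female mock libraries. In all 3 chains mock libraries 2 and 3 were far above, and mock library 1 lay inside, the C-del range, and C-del library 1 was the highest of its group. Their log2 fold changes were -3.53 ± 0.75, -3.37 ± 0.77 and -3.49 ± 0.78, with edgeR adjusted p of 0.152, 0.157 and 0.157. Without mock libraries 2 and 3 they were -0.23 ± 0.409, -0.07 ± 0.605 and -0.01 ± 0.48. Cd74 had 55.4, 29.01, 25.8 and 31.7 CPM in female C-del libraries and 36.4, 661 and 412 CPM in female mock libraries, a log2 fold change of -3.38 ± 0.75 with an edgeR adjusted p of 0.157, and of -0.04 ± 0.54 without mock libraries 2 and 3. H2-DMa and H2-DMb1, the chains of the peptide exchange factor H2-DM, had -2.25 ± 0.58 and -3.17 ± 0.81.

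Of the transactivators, Nlrc5 had 2.42, 2.39, 1.86 and 1.41 CPM in female C-del libraries and 3.95, 30.3 and 9.57 CPM in female mock libraries. Ciita had 10.6, 10.9, 13.2 and 11.2 CPM in female C-del libraries and 10.9, 37.8 and 22.8 CPM in female mock libraries. Nlrc5 did not overlap between the groups, whereas mock library 1 was within the C-del range of Ciita, and the log2 fold changes were -2.86 ± 0.61 and -1.06 ± 0.34 (edgeR adjusted p 0.155 and 0.262). Without mock libraries 2 and 3 they were -0.96 ± 0.333 and 0.08 ± 0.181. Of the 3 genes counted in neither class, H2-K2 had a log2 fold change of -1.62 ± 0.35, H2-D4 one of -3.11 ± 0.57 and H2-Ke6 one of -0.12 ± 0.20. H2-K2 shares 4.49% of its 50-base windows with the class I gene H2-T22. H2-D4, listed on an alternate sequence of chromosome 17, had nearly the counts of H2-Q7 in each library, and the reads of these entries may be shared.

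**Figure D4:**
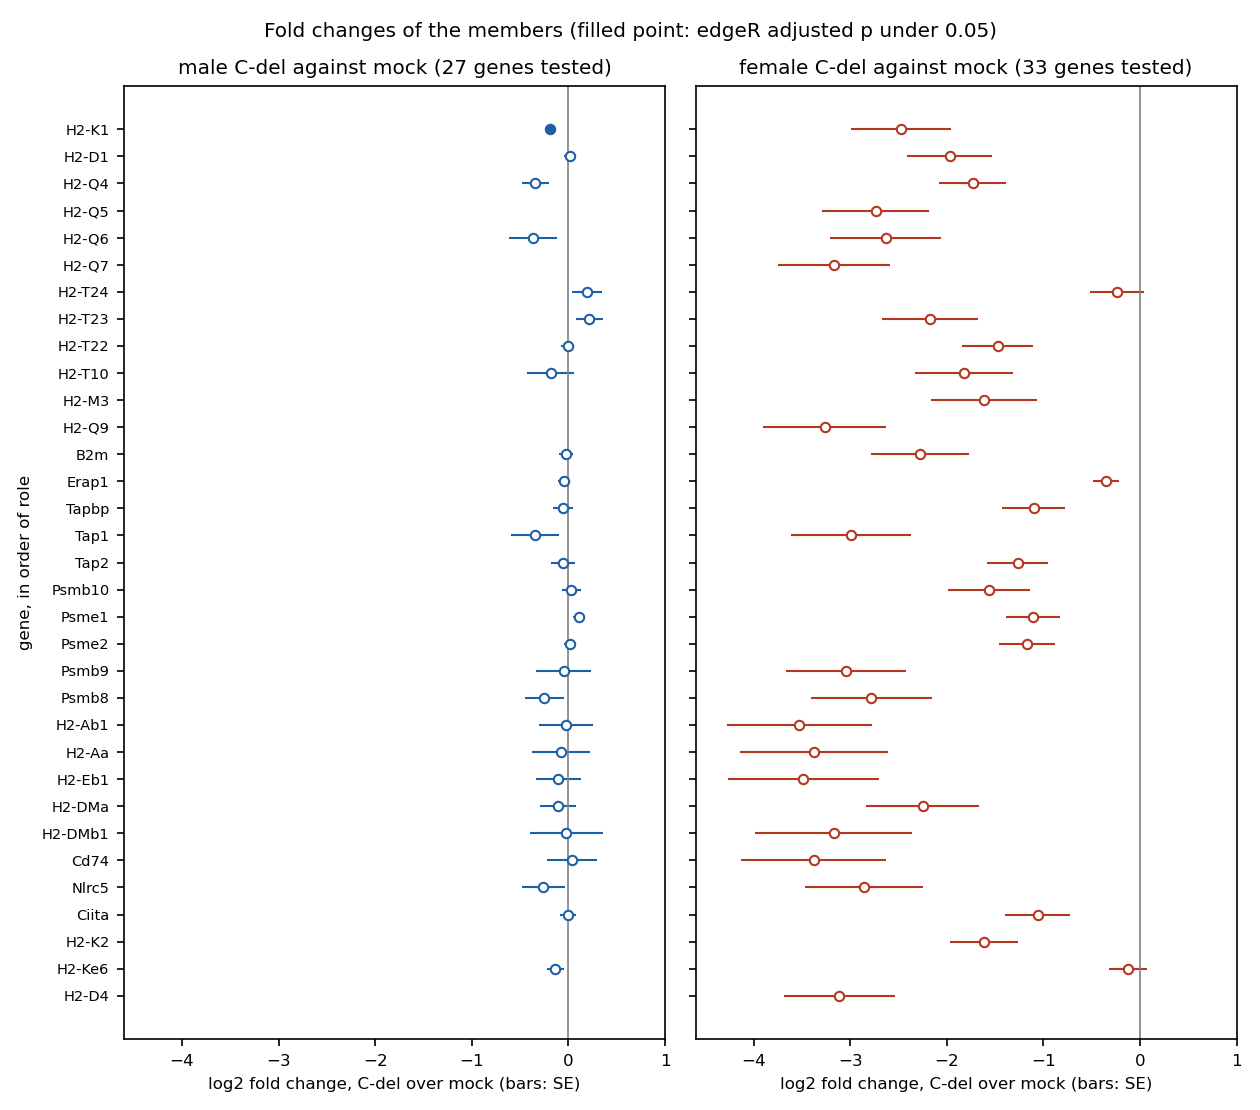
Log2 fold change of C-del over mock for each tested gene, with SE bars, in males and in females, by role. Male values lie between -0.37 and 0.22, and female values between -3.53 and -0.12, with class II genes among the lowest.

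The 7 untested genes with the highest counts all had them in female mock library 2. H2-Ob, a chain of the H2-DM inhibitor H2-DO that is known mainly from B cells, had 50 counts in that library, 2.75 in female mock library 3 and at most 2 in any other library. Its partner H2-Oa had 12.38 counts there, 1.38 in female mock library 3 and at most 0.5 elsewhere. H2-Eb2 had 34, H2-DMb2 73.13, H2-M2 23.72, H2-Q8 43.93 and H2-Q1 15.04 counts in female mock library 2. Of these, H2-DMb2 was called by DESeq2, with a log2 fold change of -4.11 and an adjusted p of 0.00953. The others with any count, such as H2-Q10 and H2-M9, had at most 3.45 counts in a library.

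The 2 high female mock libraries were not alike, and class I and class II stood differently in them. Set against mock library 1, the median of the 33 genes was 6.43-fold in mock library 2 and 4.03-fold in mock library 3, against 1.0-fold over all genes tested in both. For class I genes these medians were 5.96-fold and 4.01-fold, and for class II genes 18.1-fold and 11.2-fold. The highest single ratio was that of H2-DMb1, 24.4-fold in mock library 2 and 14.5-fold in mock library 3. Of the class II genes, H2-DMa at 8.36-fold and 5.40-fold and Ciita at 3.48-fold and 2.10-fold lay within the range of the class I genes. Mock library 2 was above mock library 3 in 26 of the 33 genes, including 7 of 7 class II genes. Mock library 3 was the higher for 4 of the 5 proteasome genes, with Psmb10 at 63.2 CPM against 35.9 CPM in mock library 2 and Psme1 at 108.4 CPM against 67.8 CPM. It was also the higher for the constitutive Psmb5, at 169.5 CPM against 100.2 CPM, and for Psmb6, Psmb7 and Psme3, which are not members. Psme4 went the other way, at 282.1 CPM against 315.8 CPM. These ratios compare single libraries and have no test.

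**Figure D5:**
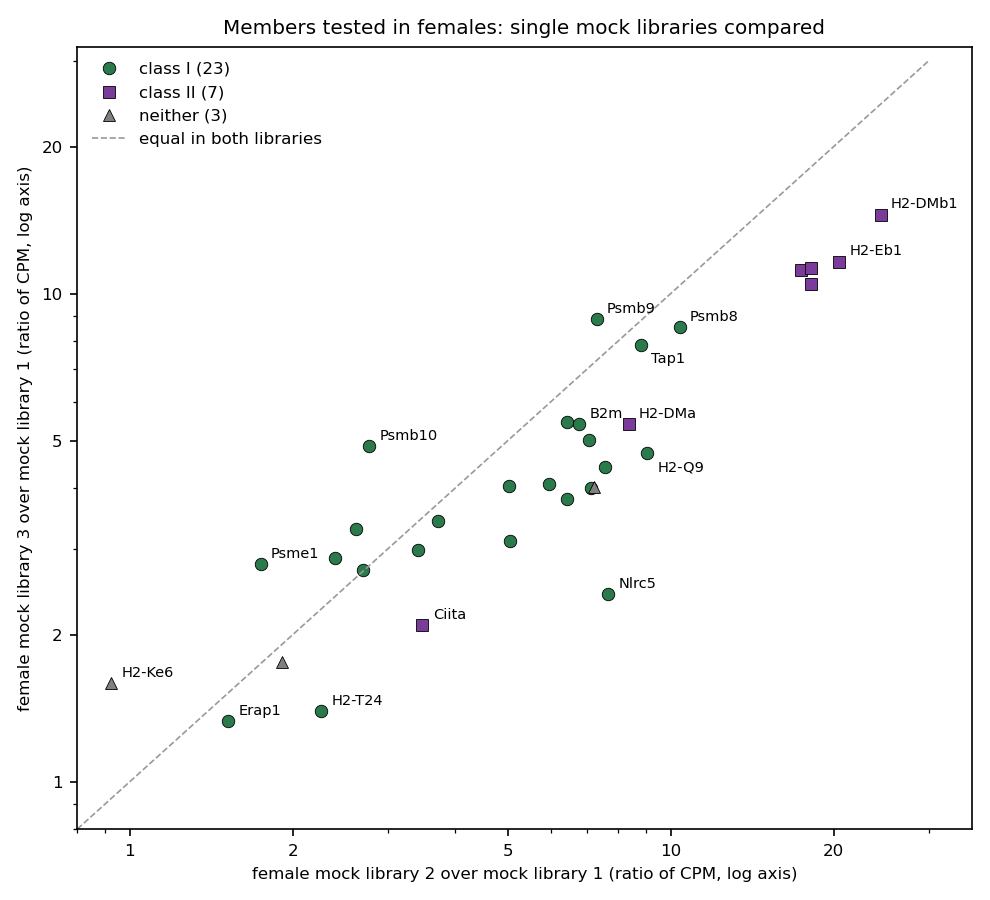
Ratio of CPM in female mock library 3 to mock library 1 (vertical) against the ratio of mock library 2 to mock library 1 (horizontal) for each gene tested in females, on log axes, with class I, class II and other genes marked. H2-DMb1, H2-Eb1, H2-Aa, Cd74 and H2-Ab1 lie furthest out, up to H2-DMb1 at 24.4 and 14.5, while the class II genes H2-DMa and Ciita lie among the class I genes, and Psmb10 and Psme1 lie above the line of equal ratios.

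Marker lists of leukocytes were high in the same libraries. The macrophage list summed to 116, 70.03, 61.5 and 53.8 CPM in female C-del libraries and 91.4, 602 and 295 CPM in female mock libraries. The B and plasma cell list of 10 genes summed to 61.6, 17.3, 8.73 and 11.3 CPM in female C-del libraries and 105, 6513 and 33.05 CPM in female mock libraries. Mock library 2 thus led in both lists, while mock library 3 was high for macrophages but not for B and plasma cells. Most of the B and plasma cell sum was immunoglobulin, with Ighm at 4269 CPM, Igkc at 1693 CPM and Jchain at 353.6 CPM in mock library 2. The T cell list of 10 genes summed to 0.492, 0.276, 0.537 and 0.756 CPM in female C-del libraries and 0.604, 70.7 and 14.2 CPM in female mock libraries, with 4 to 8 of the 10 at 0 in C-del and 0 to 6 at 0 in mock libraries. Dendritic cell markers summed to 9.92, 10.02, 8.42 and 7.46 CPM in female C-del and 8.11, 37.1 and 25.5 CPM in female mock libraries, and NK cell markers to 0.268, 0.276, 0.338 and 0.101 CPM and 0.445, 14.97 and 5.17 CPM. The part of these cells in the values of the 56 genes was not tested. Muscle fibre genes summed to 88930 to 96820 CPM in female C-del and 110800, 89000 and 106800 CPM in female mock libraries, and endothelial genes to 341.3 to 367.5 CPM and 287, 307 and 275 CPM.

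Interferon genes were high in the same libraries. A list of 12 interferon-induced genes that are not members summed to 57.96, 60.8, 51.8 and 60.97 CPM in female C-del libraries and 78.4, 876 and 1199 CPM in female mock libraries. Mock library 3 led in this sum, most of which was Iigp1 and Igtp, but 6 of the 12 genes were higher in mock library 2 and 6 in mock library 3. The 13 genes of the interferon gamma pathway summed to 415.5, 401.3, 404.6 and 416.3 CPM in female C-del libraries and 464.9, 735.7 and 682.9 CPM in female mock libraries, with mock library 2 the highest. Of the 10 interferon-induced genes tested in females with edgeR, 0 passed and 9 were lower at an unadjusted p under 0.05. DESeq2 called 8 genes of that list lower. The median log2 fold change of the 10 was -2.26, against -0.02 over all genes. Irf1, a transcription factor induced by interferon gamma, had 8.95, 10.4, 9.72 and 9.77 CPM in female C-del libraries and 13.9, 61.6 and 42.6 CPM in female mock libraries. Mock library 1 was somewhat above the C-del libraries in Irf1, and mock libraries 2 and 3 were far above. Ifng itself was at 0 in every library except female mock libraries 2 and 3, at 0.79 and 0.66 CPM. Of 11 genes of the interferon gamma pathway tested in females, 0 passed in edgeR, 7 were lower at an unadjusted p under 0.05 and DESeq2 called 5 lower, with a median of -0.93.

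In males 0 or 1 interferon genes per list and direction passed edgeR's test. Over all genes tested 5.37% were lower and 5.80% higher, and lists of 9 and 11 genes are too short to be told apart from these shares. Irf1 fell to 9.03, 7.08, 7.50 and 7.85 CPM in male C-del libraries, against 12.9, 12.4, 13.03 and 10.6 CPM in male mock libraries, a log2 fold change of -0.64 with an edgeR adjusted p of 0.00114. Irf8, a factor of myeloid and B cells, rose to 6.90, 7.25, 6.03 and 5.99 CPM in male C-del libraries, against 3.17, 2.95, 3.89 and 3.06 CPM in male mock libraries, a log2 fold change of 1.0 with an edgeR adjusted p of 0.000211. Neither gene overlapped between the groups. They were 1 lower and 1 higher call among 11 genes of the interferon gamma pathway, whose median was 0.02. Of 9 interferon-induced genes tested in males 1 was lower, the interferon-induced GTPase Igtp, with 5.50, 4.28, 4.02 and 4.33 CPM in male C-del libraries, 7.43, 7.85, 6.40 and 6.62 CPM in male mock libraries and a log2 fold change of -0.64 (edgeR adjusted p 0.00425). The groups did not overlap in Igtp either. DESeq2 called 2 genes of the interferon-induced list lower in males and 0 higher.

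Other genes of the pathway served to set the members against their neighbours. The 5 constitutive proteasome genes of the list, the counterparts of the interferon-induced subunits, had a median log2 fold change of 0.07 in males and -0.09 in females, and edgeR and DESeq2 called 0 of 5 in either sex, at an unadjusted p too. Psmb5, which Psmb8 replaces, had 109, 115, 113 and 105 CPM in female C-del libraries and 111, 100.2 and 169.5 CPM in female mock libraries, and only mock library 3 stood out. Of 7 general chaperones of class I folding, 2 rose in males, where 5.80% of all genes did: Prkcsh, a glucosidase subunit (log2 fold change 0.30, edgeR adjusted p 0.00788), and Hspa5, or BiP (0.18, edgeR adjusted p 0.0352). In females 0 of 7 passed in edgeR, 2 were lower at an unadjusted p under 0.05, DESeq2 called 1 lower and the median was -0.11. The lowest of these was Tapbpl, the tapasin-related protein, with 3.88, 2.71, 2.93 and 4.06 CPM in female C-del libraries, 4.20, 17.99 and 18.89 CPM in female mock libraries and a log2 fold change of -2.02 (edgeR adjusted p 0.157). Of 12 vesicle enzymes and factors of the class II pathway tested in males, the protease Ctsd rose (0.36, edgeR adjusted p 0.000224) and Nfyb, a subunit of the factor that binds the CCAAT box, fell (-0.28, edgeR adjusted p 0.0118). Their median was 0.17 in males and -0.20 in females, where 0 of 12 passed in edgeR, 3 were lower at an unadjusted p under 0.05 and DESeq2 called 2 lower. Cathepsin S (Ctss), which cuts the invariant chain, had 11.1, 4.14, 3.97 and 5.34 CPM in female C-del libraries and 5.27, 135.9 and 65.02 CPM in female mock libraries, a log2 fold change of -3.49 (edgeR adjusted p 0.171). In males it had 20.6, 20.2, 2.88 and 4.65 CPM in C-del libraries and 3.75, 4.83, 4.503 and 5.49 CPM in mock libraries, the split of the macrophage list. Ifi30, the lysosomal thiol reductase of the pathway, had 2.42, 1.43, 1.80 and 1.74 CPM in female C-del and 2.20, 15.09 and 7.98 CPM in female mock libraries, a log2 fold change of -2.19 (edgeR adjusted p 0.170). Peptidases that also trim class I peptides, such as Npepps and Lap3, had medians of 0.04 in males and 0.08 in females over 5 genes, with 0 calls by edgeR or DESeq2 and 1 unadjusted call higher in males, 1 higher and 1 lower in females. Genes of class I fold that lie elsewhere in the genome, such as the neonatal Fc receptor Fcgrt and Hfe, had medians of 0.02 over 4 genes in males and -0.14 over 5 in females, with 0 calls at an adjusted or unadjusted p.

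The size of the C-del difference was then set between the sexes in a fit of all 15 libraries, as the female minus the male log2 fold change. Of the 33 genes tested with edgeR, 0 passed (0.183% of all 15272 genes were lower), with adjusted p from 0.077 to 0.99. At an unadjusted p under 0.05, 29 were lower (9.76% of all genes), and DESeq2 called 24 of the 37 with an adjusted p lower (2.81% of all 16931 genes with one). The median difference was -2.15, and 32 of 33 were negative. It was largest in H2-Ab1, at -3.51 ± 0.93, Cd74, at -3.42 ± 0.90, and H2-Eb1, at -3.39 ± 0.97 (edgeR adjusted p 0.0925, 0.0904 and 0.105). In class I it was -2.29 ± 0.58 for H2-K1 and -2.26 ± 0.57 for B2m, while Erap1 had -0.31 ± 0.14 and H2-Ke6 0.01 ± 0.20. Without female mock library 1, edgeR called 32 of 36 genes (7.69% of the 15791 genes tested). The female mock libraries kept in that fit are those already seen to be high in these genes, so its calls restate that difference. With female mock libraries 2 and 3 left out the median was -0.10. The difference between the sexes thus rested on the same 2 libraries, and as above it cannot be told apart from a difference between the tables.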

How the data were processed

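Both tables hold expected counts per gene as deposited by the authors, which are estimated counts, many of them fractional and none normalised. Per the submitters' processing notes, featureCounts 2.0.0 was used with GRCm38.p6. Not given in the sources used here are the aligner, the use of strand and the handling of reads with several matches. The labels' protocols name a stranded mRNA kit. Female columns carry the replicate numbers of the labels, whereas male columns match by group alone, so male library numbers pair nothing.

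Counts were rounded, filtered with filterByExpr (minimum count 10), scaled by TMM and, each sex alone, fitted with edgeR's quasi-likelihood test in its robust form, with Benjamini-Hochberg adjustment over all genes tested and a threshold of 0.05. The female minus male difference came from a fit of all 15 libraries. DESeq2, other filters and scalings and left-out libraries were alternatives. The SE is the log2 fold change over the root of F. Replicates differed by a chi-square per gene of 2.48 to 40.3, so none was counted as a copy. Exon lengths came from GENCODE vM21 and promoters from RefSeq. The steps were tested on simulated data. Intervals for a count of 0 cover counting error only. Tools were R 4.3.3, edgeR 4.0.16, limma 3.58.1, DESeq2 1.42.0, Python 3.11.15, numpy 2.4.6, pandas 2.3.3 and matplotlib 3.10.9.

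The members, gene lists and tests were chosen with earlier results of these data known. By the rule for named genes, every tested member is named, untested ones by their highest count, and from each list the genes called or, where none was, those of highest mean CPM. The text names some of these high-CPM genes, and a few list genes named beyond it, such as Psmb5, Igkc, Jchain, Tapbpl, Ctss and Ifi30, were picked after their values were seen. Values of some genes are not reported here.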

Additional observations from a re-analysis of the deposited data

Results flagged for a closer look

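In groups of 4 libraries, 5 of 87 gene and group combinations had a library set far from the other 3, where chance alone marks about 1 in 20. H2-K1 was at 34.02 CPM in male C-del library 4, with the other male C-del libraries at 31.72 to 31.91 CPM. H2-T22 was at 15.78 CPM in male mock library 1, with the others at 17.03 to 17.1 CPM. H2-T10 was at 1.196 CPM in female C-del library 1, with the others at 0.8647 to 0.8947 CPM. H2-M3 was at 1.025 CPM in female C-del library 4, with the others at 0.3731 to 0.4828 CPM. H2-Ke6 was at 9.953 CPM in female C-del library 3, with the others at 9.104 to 9.243 CPM. The 3 female mock libraries are too few for this check.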

How the results depend on the processing

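The male count of lower genes, 1, was 0 with DESeq2, with no low-count filter and in the fit of all 15 libraries, and 0 to 1 with 1 library left out. Calls without male C-del libraries 1 and 2 are not counted, because these were left out for their high class II values. The female count, 0, was 26 with DESeq2, 29 in the fit of all 15 libraries and 0 to 34 with 1 library left out. The count for the difference, 0, was 24 with DESeq2 and 0 to 32 with 1 library left out. The counts of 34 and 32 came without female mock library 1, which keeps only the mock libraries high in these genes. Without female mock libraries 2 and 3 the female median was -0.103 and that of the difference -0.0987 (-2.66 to -1.57 with 1 library left out). The replicate block in females, over the 3 shared numbers, gave 0 calls and a median of -1.94. Same-numbered female libraries deviated together with correlations of -0.134, -0.00813 and -0.041, so the numbers are not taken to pair them.

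Single genes changed sign. Without male C-del libraries 1 and 2, log2 fold changes were -0.0141 for Psmb10, -0.0312 for H2-D1, -0.0112 for H2-T23 and -0.451 for Cd74. Male Ciita was 0.00218 with DESeq2, 0.000687 with DESeq2 size factors, 0.000585 with no filter, 0.000784 with copies summed and 0.00279 in the fit of all libraries. Male H2-DMa was 0.0113 and H2-DMb1 0.0149 with copies summed. Without female mock libraries 2 and 3, the female values were 0.0126 for Erap1, 0.0822 for Ciita, 0.101 for Tapbp, 0.1 for H2-Ke6, 0.0791 for H2-DMa, 0.617 for H2-DMb1, 0.403 for H2-T24 and 0.128 for H2-T10. The differences were then 0.0519 for Erap1, 0.0744 for Ciita, 0.146 for Tapbp, 0.179 for H2-DMa, 0.632 for H2-DMb1, 0.196 for Psmb8, 0.00171 for H2-Aa, 0.0811 for H2-Eb1, 0.168 for H2-Q5, 0.201 for H2-T24, 0.304 for H2-T10 and 0.259 for H2-M3. With 1 library left out, male values ran from -0.0662 to 0.0344 for B2m, -0.026 to 0.0871 for Psmb10, -0.00537 to 0.0557 for Psme2, -0.0344 to 0.0378 for Ciita, -0.113 to 0.00153 for Tapbp, -0.205 to 0.262 for H2-DMb1, -0.193 to 0.101 for Psmb9, -0.226 to 0.15 for H2-Ab1, -0.341 to 0.105 for H2-Aa, -0.318 to 0.0507 for H2-Eb1, -0.0117 to 0.0404 for H2-D1, -0.0335 to 0.0272 for H2-T22 and -0.142 to 0.209 for Cd74. Female values ran from -0.277 to 0.157 for H2-Ke6 and -0.47 to 0.148 for H2-T24, and the difference from -0.139 to 0.3 for H2-Ke6. The cause was not tested. Of the values of single genes, 172 of 189 in males, 202 of 264 in females and 163 of 198 for the difference kept their direction and side of the threshold under the settings other than leaving out 1 library, and 176 of 216, 195 of 228 and 463 of 495 did with 1 left out. Depth limits the genes below about 1 CPM, where a few counts decide a value, and 3 female mock libraries that differ among themselves limit every female test.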

Other observations

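H2-Q7 and H2-D4 had nearly equal values in every library although they are separate entries. H2-Q7 stood at 0.746, 0.685, 0.771 and 0.678 CPM in female C-del libraries and at 1.58, 11.2 and 6.33 CPM in female mock libraries. H2-D4 stood at 0.755, 0.704, 0.767 and 0.693 CPM in female C-del libraries and at 1.56, 11.3 and 6.26 CPM in female mock libraries. H2-D4 is listed on an alternate sequence of chromosome 17, and how reads were shared between the entries was not tested.

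Neutrophil markers, which the comparisons above do not use, summed to 1.43, 2.11, 1.88 and 1.59 CPM in male C-del libraries and to 0.750, 0.857, 0.692 and 1.07 CPM in male mock libraries. In females they summed to 1.11, 0.644, 0.380 and 0.918 CPM in C-del libraries and to 1.48, 4.77 and 12.4 CPM in mock libraries, with mock library 3 the highest. The granulocyte surface gene Ly6g was at 0 in every library. None of the 6 markers passed the low-count filter in either table, so the difference was not tested with edgeR.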
